A study of Mus musculus with 24 samples.

Results

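The data describe small intestinal crypts that had lost Rb, compared with and without the loss of the transcription factors E2f1, E2f2 and E2f3. The members were the 3 crypt arrays titled QKO and the 3 crypt arrays titled Rb, 6 of the 24 arrays of the series, chosen by their titles. The other 18 arrays held Rb and QKO villi and the crypts and villi of wild-type (WT) and E2f1-/-;E2f2-/-;E2f3-/- (TKO) mice, again 3 arrays to a group. Each array measured 18193 genes, each taken from its probe set with the highest mean over the 24 arrays.

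Both groups carried Rb-/-, and the QKO group also carried E2f1-/-, E2f2-/- and E2f3-/-, so the comparison asked what the loss of the 3 E2f genes did where Rb was already missing. All animals were of the mixed strain C57BL/6;FVB, 2 months old and on a normal diet. Their small intestines were taken on day 7 after an intraperitoneal injection of beta-napthoflavone, which WT animals received too. The sources used here do not give the transgene or Cre behind any inducible deletion, nor the deleted exons. They also do not say if arrays of 1 group are different animals, so p-values measure the spread between arrays.

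E2f proteins bind DNA with a DP partner and switch genes for S phase and mitosis on or off. Rb, a pocket protein, holds the activator proteins E2f1, E2f2 and E2f3 silent until cyclin-dependent kinases phosphorylate it, while E2f7 and E2f8 act as repressors without Rb. In the intestine, stem cells at the crypt base give rise to dividing progenitors, which leave the cycle as they become absorptive, goblet, enteroendocrine, tuft or Paneth cells.

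The arrays were checked against their labels first. Rb1 encodes Rb, and its level (log2, as all levels here) was 8.23, 10.25 and 8.87 on Rb crypt arrays 1, 2 and 3, and 8.13, 8.18 and 8.23 on the QKO arrays. The array labelled Rb crypts 2 thus stood above the other 5 and within the WT crypt arrays, which read 10.31, 10.59 and 8.46. It lay within them only because the array labelled WT crypts 3 (8.46) read like the other Rb arrays. Whether these labels were exchanged was not tested, and an exchange would change the Rb and WT values, and each difference from them, given here. Rb1 did not pass the test (-0.93 ± 0.41 SE, adjusted p = 0.13, limma; -0.37 without that array). A dim second probe set of Rb1 read 3.73, 3.63 and 3.89 on the Rb arrays and 4.33, 4.35 and 4.345 on the QKO arrays. It was called higher (0.59, adjusted p = 0.00179, limma), and the array labelled Rb crypts 2 was its lowest. In what follows, triplets of values are in the order of the array numbers, so the middle Rb value is always that of the array labelled Rb crypts 2. Leaving it out ended some calls and moved some called differences by over 1.5 times. Where these Results give such a difference in crypts, on the probe set used for the gene, this is stated beside it. Counts of list members were not all repeated without it.

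Other measures moved with genotype. The Y-linked gene Eif2s3y read 3.11, 3.29 and 3.12 on the Rb arrays and 10.06, 9.81 and 9.54 on the QKO arrays, while Xist, made from the inactive X, was 8.40 to 11.22 and 5.36 to 5.77, so the Rb crypts were female and the QKO crypts male. Poly-A spike-in controls averaged 5.44 to 5.79 on the Rb arrays and 9.70 to 10.37 on the QKO arrays, and the 3' minus 5' difference of Gapdh was -0.18 to -0.12 against 0.07 to 0.23. Sex, the spike-in split and the E2f genotype cannot be told apart in the 6 arrays. Crypt markers were high on all 6: Olfm4, made by stem cells and their early progeny, was 12.62 to 13.39 and Lyz1, the Paneth cell lysozyme, was 14.34 to 14.75.

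Across the genome, 3128 of 18193 genes (17.2%) were called at an adjusted p under 0.05 by limma, 2441 (13.4%) higher and 687 (3.78%) lower in QKO than in Rb crypts, the shares against which the counts of each gene list stand. The median difference over all genes was 0.05 on the log2 scale. Differences over 1 were found for 531 genes that rose and 129 that fell, and differences over 2 for 77 and 18. The 3 QKO arrays did not overlap the 3 Rb arrays for 5255 genes (28.9%), among them 2942 of those called. After quantile normalization the share of calls that were rises was 61.3% and the overall median -0.01, against 78.0% and 0.05 as deposited. The count was 1964 without QKO crypts 2, 2800 without the array labelled Rb crypts 2, and 1605 with sex as a covariate. In such bulk RNA, fewer cells of a type and less RNA per cell cannot be told apart. The plot of difference against level marks the genes described next.

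The E2f family was examined first. Of 10 measured E2f and DP genes, 3 fell (E2f2, E2f7 and E2f8), 1 was called higher (E2f6, on 1 of 2 probe sets that disagreed) and the others were not called, with a median difference of -0.19. E2f7, an atypical repressor, read 8.49, 7.81 and 8.43 on the Rb arrays and 5.497, 6.60 and 6.07 on the QKO arrays. All 3 QKO values lay below all Rb values, by -2.19 ± 0.30 (SE) on the log2 scale (adjusted p = 6.51e-05, limma). Without the array labelled Rb crypts 2 the difference of E2f7 was -2.40.

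E2f8, the second atypical repressor, read 10.11, 9.24 and 10.13 against 8.69, 9.38 and 8.76. The array labelled Rb crypts 2 lay below QKO crypts 2, so the groups overlapped, and the fall of -0.88 ± 0.30 (adjusted p = 0.0435, limma) was lost under 7 of the 17 alternatives (other scalings, other fits and arrays left out). A second probe set of E2f8 read 7.08, 6.30 and 7.11 against 4.93, 5.47 and 5.12, with no overlap (-1.66, adjusted p = 0.000154, limma). E2f6, a repressor that acts without Rb, was higher by 0.38 (adjusted p = 0.0466, limma), a call kept under 4 of the 17 and turned to -0.11 when the probe sets of the gene were averaged. Its other probe set was called lower, at -0.59, so E2f6 has no settled direction.

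The targeted genes kept signal on the arrays, and probe sets outside a deleted exon check nothing. E2f2 read 9.59, 9.36 and 9.39 on the Rb arrays and 8.42, 8.52 and 8.42 on the QKO arrays. The groups did not overlap, and E2f2 fell by 0.99 (SE 0.19, adjusted p = 0.000991, limma). E2f1 read 7.31, 7.29 and 7.62 against 7.27, 7.32 and 6.74, overlapping groups that did not pass the test (-0.30 ± 0.19, adjusted p = 0.323, limma). A dimmer probe set of E2f1 read 7.4996, 6.98 and 7.48 against 6.95, 6.68 and 6.49 and was called lower (-0.61 ± 0.17, adjusted p = 0.0152, limma). E2f3 overlapped as well, at 7.87, 7.57 and 8.03 against 7.93, 8.13 and 7.86.

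The repressors E2f4 (0.01) and E2f5 (-0.18), the DP partners Tfdp1 (-0.21) and Tfdp2 (-0.13), and the pocket protein genes Rbl1 (-0.29) and Rbl2 (-0.47) were not called. Other probe sets differed: 1 of the 4 of Rbl1 was called higher, at 1.20, and 1 of the 2 of Rbl2 lower, at -0.62. In crypts with Rb, E2f7 differed between TKO and WT by -2.07 and E2f2 by -1.01, from arrays that share none with the comparison of QKO with Rb. The TKO and WT arrays carry the same spike-in split by E2f genotype.

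E2f7 and E2f2 are shown with their promoters because both hold a match to the E2f site, searched as TTTCCCGC, TTTCGCGC, TTTGCCGC or TTTGGCGC on both strands (the reverse complement of TTTCCCGC reads GCGGGAAA). The windows run from 250 bases before to 50 after the RefSeq start (build GRCm38.p6, + strand, 5′ to 3′), with the match in capitals, at chr10:110745189-110745488 for E2f7 and chr4:136172024-136172323 for E2f2, which has 2 such windows.
E2f7: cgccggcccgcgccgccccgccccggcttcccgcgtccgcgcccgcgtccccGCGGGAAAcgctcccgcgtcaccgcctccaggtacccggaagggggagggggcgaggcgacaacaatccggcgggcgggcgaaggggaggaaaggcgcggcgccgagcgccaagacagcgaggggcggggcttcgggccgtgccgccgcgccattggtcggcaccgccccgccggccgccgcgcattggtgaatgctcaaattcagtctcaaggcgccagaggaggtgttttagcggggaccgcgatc
E2f2: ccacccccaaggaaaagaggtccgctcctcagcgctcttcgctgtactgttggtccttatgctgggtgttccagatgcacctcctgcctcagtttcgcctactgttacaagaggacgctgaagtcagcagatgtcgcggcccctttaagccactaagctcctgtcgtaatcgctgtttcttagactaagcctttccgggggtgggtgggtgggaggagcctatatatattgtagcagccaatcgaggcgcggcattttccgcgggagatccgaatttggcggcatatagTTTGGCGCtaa
At least 1 of the words occurs in 744 of 32851 promoter windows (2.26%). A match describes the letters and not a bound site.

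Inhibitors of cyclin-dependent kinases were among the cell cycle genes that fell. Of 17 measured cyclins, kinases and inhibitors, 5 fell and 2 rose, with a median of -0.23. Cdkn2c, which encodes p18 and blocks Cdk4 and Cdk6, read 10.46, 9.13 and 10.22 on the Rb arrays and 5.90, 6.04 and 5.90 on the QKO arrays. No arrays overlapped, and the QKO level was 15.9-fold lower on the deposited scale (-3.99 ± 0.27, adjusted p = 8.43e-09, limma). Leaving out the array labelled Rb crypts 2, the lowest of its group, gave -4.39. The WT crypts read 9.12, 9.28 and 10.28, and the difference of TKO from WT was -3.53.

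Cdkn2d, which encodes the related inhibitor p19, read 8.66, 7.35 and 8.06 against 6.38, 6.19 and 6.58 (-1.64 ± 0.27, adjusted p = 0.000313, limma). Cdkn1b, which encodes p27, an inhibitor of cyclin E and cyclin A kinases, read 10.37, 9.76 and 10.06 against 8.83, 8.97 and 9.18 (-1.07 ± 0.21, adjusted p = 0.00142, limma). Neither gene overlapped between groups, and both were called under all 17 alternatives.

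Cyclins differed in direction. Ccne2, a cyclin E that drives entry into S phase, read 9.49, 7.83 and 9.90 on the Rb arrays and 6.81, 7.00 and 6.97 on the QKO arrays. The groups did not overlap, and the fall of 2.14 (SE 0.46, adjusted p = 0.00274, limma) became 2.76 without the array labelled Rb crypts 2. Ccna2, the S phase and G2 cyclin, read 10.77, 10.44 and 10.01 against 9.44, 9.57 and 10.04, a narrow overlap. Its fall of 0.73 (adjusted p = 0.0377, limma) was lost without the array labelled Rb crypts 2 (adjusted p = 0.0819, limma).

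The cyclin of G1, Ccnd2, rose from 9.22, 10.58 and 8.36 to 11.06, 10.90 and 10.43, by 1.41 ± 0.45 (adjusted p = 0.0338, limma), and by 2.01 without the array labelled Rb crypts 2. That array overlapped the QKO arrays, and the call held under 9 of the 17 alternatives, quantile normalization among those that ended it (adjusted p = 0.0567, limma). Cdk6, a kinase partner of the D cyclins, read 8.61, 9.63 and 7.78 against 9.77, 9.78 and 9.54 (1.02, adjusted p = 0.0343, limma), called under 8 of the 17 alternatives. Ccne2, Ccna2, Ccnd2 and Cdk6 were chosen after their values were seen. The plot of 12 genes by array shows these levels.

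**Figure D1:**
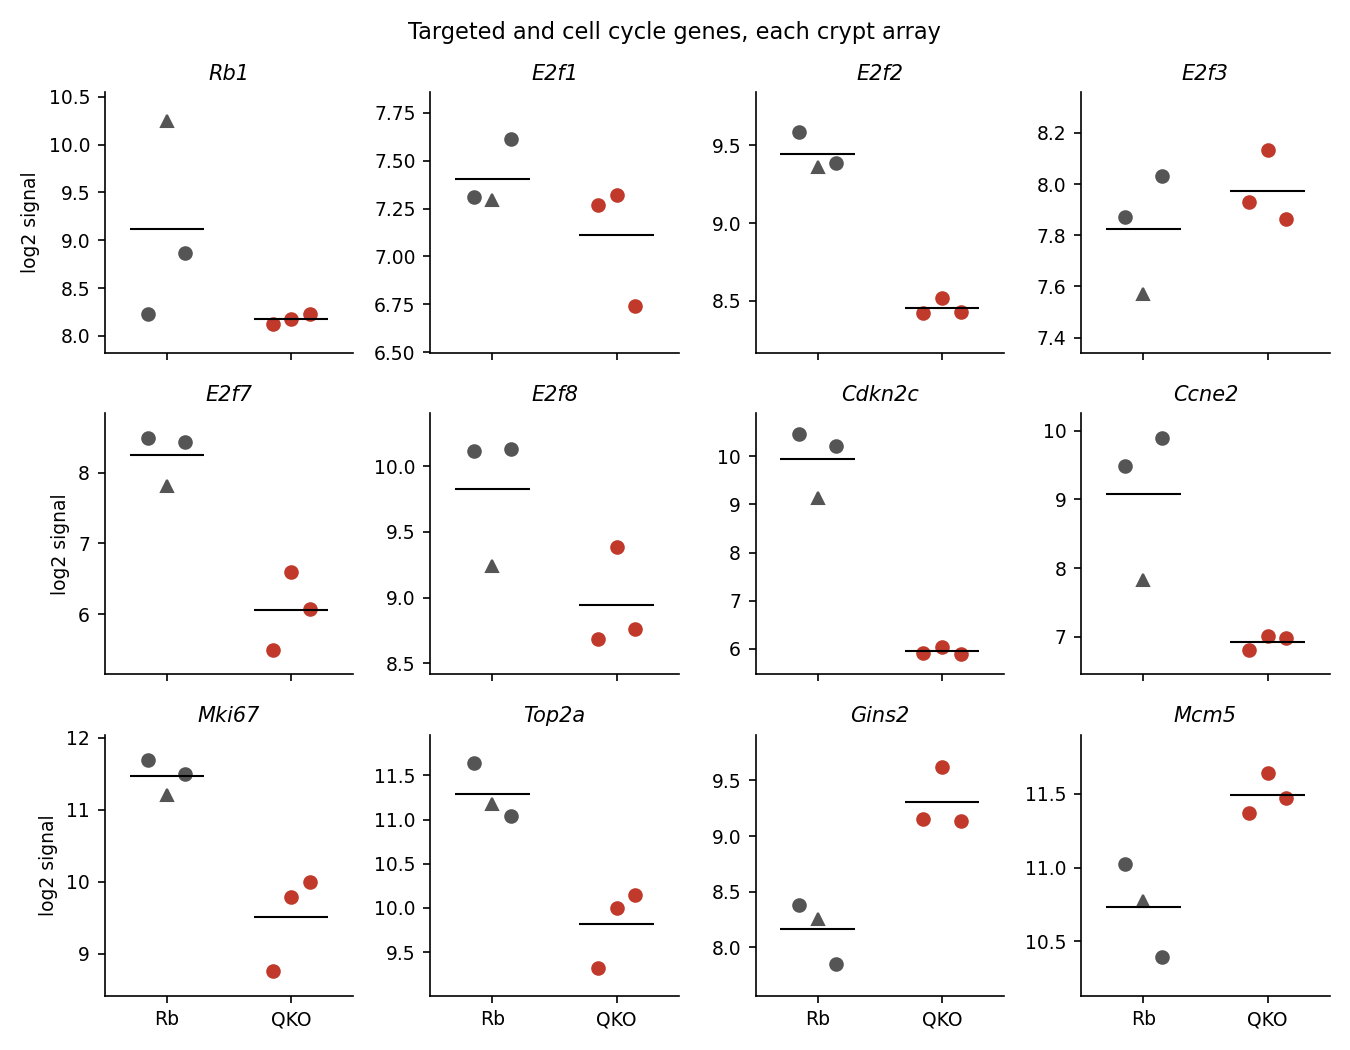
Level (log2) of 12 genes on each of the 3 Rb and 3 QKO crypt arrays, with a bar at each group mean and a triangle for the array labelled Rb crypts 2. For Rb1 the triangle (10.25) stands apart from the other 5 arrays, and for Cdkn2c it is the lowest Rb array (9.13) but still above all QKO arrays (5.90 to 6.04).

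Genes of DNA replication were higher where they were called with all arrays kept. Of 20 measured genes of origin licensing and firing, 6 rose and none fell, with a median of 0.40. Gins2, a subunit of the replicative helicase, read 8.38, 8.25 and 7.85 on the Rb arrays and 9.15, 9.62 and 9.14 on the QKO arrays. The groups did not overlap and Gins2 rose by 1.14 ± 0.18 (adjusted p = 0.000278, limma). Mcm2, part of the ring of the same helicase, read 9.57, 9.36 and 9.61 against 10.35, 10.18 and 10.20 (0.73 ± 0.13, adjusted p = 0.000515, limma). Gins1, a partner of Gins2, rose from 8.29, 7.98 and 7.84 to 8.86, 8.87 and 8.73 (0.78, adjusted p = 0.000964, limma).

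Mcm5, another helicase subunit, read 11.02, 10.77 and 10.40 against 11.37, 11.64 and 11.47 (0.76 ± 0.17, adjusted p = 0.00302, limma). Cdt1, which loads the Mcm ring onto origins, read 11.42, 10.71 and 11.41 against 12.02, 11.99 and 11.85 (0.78 ± 0.18, adjusted p = 0.00544, limma). Both were chosen after their values were seen, and neither overlapped between groups. Mcm5 lost its call with sex as a covariate and when its probe sets were averaged, and Cdt1 without the arrays labelled Rb crypts 2 and QKO crypts 2 and with the replicate block. Mcm2, Gins1 and Gins2 were called under all 17 alternatives, although only 1 of the 2 probe sets of Mcm2 and of Gins1 was called.

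Among 23 measured DNA polymerase and fork genes, 4 rose and none fell, with a median of 0.14 that turned to -0.0049 after quantile normalization. Without QKO crypts 2 there was 1 rise. Without the array labelled Rb crypts 2, 2 rose and 3 fell, so the direction of the calls depended on that array. The share of 4 rises is near the 13.4% of all genes that were higher. Timeless, which protects the replication fork, read 7.79, 7.53 and 7.57 against 8.80, 8.76 and 8.35 (1.01 ± 0.15, adjusted p = 0.000166, limma), with no overlap on this probe set and no call on its other one. Rfc4, of the clamp loader, rose by 0.59 (adjusted p = 0.0223, limma) and Pole2, a subunit of polymerase epsilon, by 0.54 (adjusted p = 0.0336, limma), but these held under 10 and 8 of the 17 alternatives, and Pole2 was not called without the array labelled Rb crypts 2 (adjusted p = 0.136, limma). Of 11 nucleotide synthesis genes, Umps (0.56, adjusted p = 0.00656, limma) and Ctps (0.63, adjusted p = 0.0109, limma), both of pyrimidine synthesis, rose, each under 13 of the 17 alternatives, a count near the share of all genes.

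The 10 measured genes of replication-coupled chromatin went both ways, with 1 rise, 4 falls and a median of 0.06 that turned to -0.08 after quantile normalization. Hells, a chromatin remodeller needed for DNA methylation, rose from 9.76, 9.87 and 9.62 to 10.84, 10.42 and 10.62 (0.88 ± 0.19, adjusted p = 0.00266, limma). Its promoter is shown as that of a gene with a match that rose, at chr19:38930740-38931039.
Hells: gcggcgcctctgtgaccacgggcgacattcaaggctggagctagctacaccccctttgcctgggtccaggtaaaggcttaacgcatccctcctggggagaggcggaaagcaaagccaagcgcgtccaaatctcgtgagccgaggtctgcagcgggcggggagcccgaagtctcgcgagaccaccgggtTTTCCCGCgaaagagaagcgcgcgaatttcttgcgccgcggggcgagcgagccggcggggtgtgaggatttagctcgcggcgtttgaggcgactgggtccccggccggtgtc
The groups of Hells did not overlap. Ezh2, the methyltransferase of histone H3 in the Polycomb complex, fell from 9.86, 9.34 and 9.92 to 8.93, 9.20 and 9.06 (-0.64, adjusted p = 0.00806, limma). Tcf19, a gene of late G1, fell from 10.66, 9.27 and 10.59 to 8.37, 8.86 and 8.37 (-1.64 ± 0.30, adjusted p = 0.000715, limma). Only 1 of the 2 probe sets of Tcf19 was called, and the other differed by -0.23.

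Mitotic genes were lower as far as they were called: of 50 measured, 9 fell and 1 rose, with a median of -0.39. Mki67, the proliferation antigen of dividing cells, read 11.70, 11.20 and 11.50 on the Rb arrays and 8.77, 9.79 and 10.002 on the QKO arrays. The groups were well apart, at -1.95 ± 0.29 (adjusted p = 0.000135, limma), and at -2.08 without the array labelled Rb crypts 2. Top2a, the topoisomerase that untangles sister chromatids, fell from 11.64, 11.17 and 11.04 to 9.32, 10.004 and 10.14 (-1.46 ± 0.27, adjusted p = 0.000896, limma). Only 1 of its 3 probe sets was called, and their mean differed by -0.37 (adjusted p = 0.0602, limma).

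Kif23, a kinesin of cytokinesis, read 9.56, 9.25 and 9.10 against 8.16, 8.71 and 8.47 (-0.86, adjusted p = 0.00118, limma), with no overlap. The 1 mitotic gene that rose was Mybl2, a transcription factor of the late cell cycle that was picked after its value was seen (0.66, adjusted p = 0.0238, limma, called under 8 of 17 alternatives). Summed over the list, the level was 15.16 to 15.75 on the Rb arrays and 14.61 to 15.32 on the QKO arrays, an overlap, while origin licensing genes summed to 14.02 to 14.47 and 14.59 to 14.74. The count of falls was 15 after quantile normalization and 12 with arrays centred on their medians.

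DNA damage response genes were next. Of 20 measured, 5 rose and 1 fell, with a median of 0.38; with sex as a covariate 2 rose. Chek2, a checkpoint kinase activated by strand breaks, read 7.98, 7.73 and 7.49 on the Rb arrays and 8.75, 8.70 and 8.33 on the QKO arrays, with no overlap (0.86 ± 0.17, adjusted p = 0.00128, limma). Its promoter is printed because Chek2 is the second riser with a match, at chr5:110839733-110840032.
Chek2: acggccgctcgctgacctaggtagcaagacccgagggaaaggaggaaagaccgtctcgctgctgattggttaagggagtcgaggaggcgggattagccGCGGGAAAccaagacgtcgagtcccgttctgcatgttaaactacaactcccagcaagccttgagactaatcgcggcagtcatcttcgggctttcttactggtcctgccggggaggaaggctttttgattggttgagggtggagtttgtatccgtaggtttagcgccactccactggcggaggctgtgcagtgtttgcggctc
Chek1, the kinase of the replication checkpoint, rose from 8.08, 8.09 and 7.72 to 9.24, 8.85 and 8.64 (0.95 ± 0.22, adjusted p = 0.00441, limma). The 1 fall was H2ax, the histone variant phosphorylated at breaks, from 11.17, 10.68 and 10.68 to 9.55, 10.11 and 9.82 (-1.02 ± 0.16, adjusted p = 0.000242, limma).

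Targets of p53 rose where they were called. Of 21 measured, 8 rose and none fell, with a median of 0.37. The count of rises was 5 without the array labelled Rb crypts 2, without QKO crypts 2 or with sex as a covariate. After quantile normalization 5 rose and 1 fell. Ccng1, the p53 target cyclin G1, read 9.81, 9.94 and 9.86 on the Rb arrays and 11.68, 11.37 and 11.02 on the QKO arrays, by 1.48 ± 0.23 (adjusted p = 0.000215, limma). The Rb arrays lay within a narrow band that no QKO array reached. Zmat3, an RNA-binding p53 target, rose from 6.55, 7.05 and 6.93 to 8.97, 8.15 and 7.70 (1.43, adjusted p = 0.0013, limma), and Phlda3, an inhibitor of Akt, from 6.55, 6.48 and 6.61 to 8.79, 7.21 and 7.49 (1.29, adjusted p = 0.00297, limma). Neither gene overlapped between groups.

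Eda2r, a receptor of the TNF receptor family that was picked after its value was seen, rose from 3.84, 4.49 and 4.31 to 7.56, 5.52 and 5.72 (2.05 ± 0.45, adjusted p = 0.00357, limma). QKO crypts 1 was the highest array for Ccng1, Zmat3, Phlda3 and Eda2r alike. The best known p53 targets were not among the calls: Mdm2, the ubiquitin ligase of p53, differed by 0.34 (adjusted p = 0.215, limma) and Cdkn1a, which encodes the kinase inhibitor p21, by 0.06 (adjusted p = 0.924, limma). Both were chosen after their values were seen. Of 14 apoptosis genes 2 rose, Diablo (0.47, adjusted p = 0.0209, limma) and Bid (0.80, adjusted p = 0.0437, limma), each under 8 of the 17 alternatives.

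The E2f word was counted over the promoters of all measured genes that had a window. It stood in 550 of 14452 (3.81%), in 70 of 2003 that rose (3.49%), in 30 of 548 that fell (5.47%) and in 450 of 11901 not called (3.78%). Among the cell cycle members it was present in 35 of 134 (26.1%), in 5 of 17 that rose, in 3 of 17 that fell and in 27 of 100 not called. These shares are descriptions, and were not tested.

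Cell type markers were compared next. Goblet cell markers fell: of 21 measured, 13 were lower and none higher, with a median of -0.96, against 3.78% of all genes lower. Muc2, the main mucin, read 13.14, 13.41 and 13.34 on the Rb arrays and 11.47, 12.21 and 11.82 on the QKO arrays (-1.46 ± 0.19, adjusted p = 3.84e-05, limma). Tff3, the trefoil peptide secreted with mucin, fell from 14.34, 14.10 and 14.31 to 12.94, 13.33 and 13.10 (-1.12 ± 0.15, adjusted p = 4.59e-05, limma). Neither overlapped between groups, and the summed level of the list was 16.76 to 16.81 against 15.53 to 16.04.

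Atoh1, the transcription factor that commits progenitors to secretory fates, read 8.76, 8.83 and 8.67 against 7.19, 7.75 and 7.56 (-1.25 ± 0.17, adjusted p = 5.7e-05, limma), also with no overlap. Over the alternatives run the count of goblet falls lay between 9, with sex as a covariate, and 14, without QKO crypts 2. Goblet markers were also lower without the E2f genes where Rb was intact, with 12 of 21 lower in TKO than in WT crypts, a median of -0.84, and Muc2 at -1.12.

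Enteroendocrine markers went the other way: of 25 measured, 11 rose and 1 fell (Pax4, -0.47, named after its value was seen), with a median of 0.82. Tph1, which makes the precursor of serotonin in enterochromaffin cells, read 6.34, 6.53 and 5.82 on the Rb arrays and 7.83, 8.16 and 8.02 on the QKO arrays (1.77 ± 0.31, adjusted p = 0.000598, limma). Scg2, a granin of secretory granules, rose from 5.35, 5.96 and 5.08 to 6.98, 7.18 and 6.87 (1.55 ± 0.26, adjusted p = 0.000399, limma). Cck, the hormone cholecystokinin, rose from 7.62, 8.48 and 7.34 to 9.25, 9.84 and 8.92 (1.52 ± 0.33, adjusted p = 0.00318, limma). For all 3 genes the lowest QKO array was above the highest Rb array, which was the array labelled Rb crypts 2.

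Neurog3, the transcription factor of enteroendocrine progenitors, rose by 1.30 ± 0.38 (adjusted p = 0.0225, limma, called under 13 of 17 alternatives), and Chga, chromogranin A, was not called (0.47, adjusted p = 0.419, limma). Both were picked after their values were seen. The count of rises was 4 without QKO crypts 2 and 12 without the array labelled Rb crypts 2, and the summed level was 12.61 to 13.69 against 13.62 to 14.10. The fall of Pax4 was not called when either of these arrays was left out. In TKO against WT crypts none of the 25 was called.

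**Figure D2:**
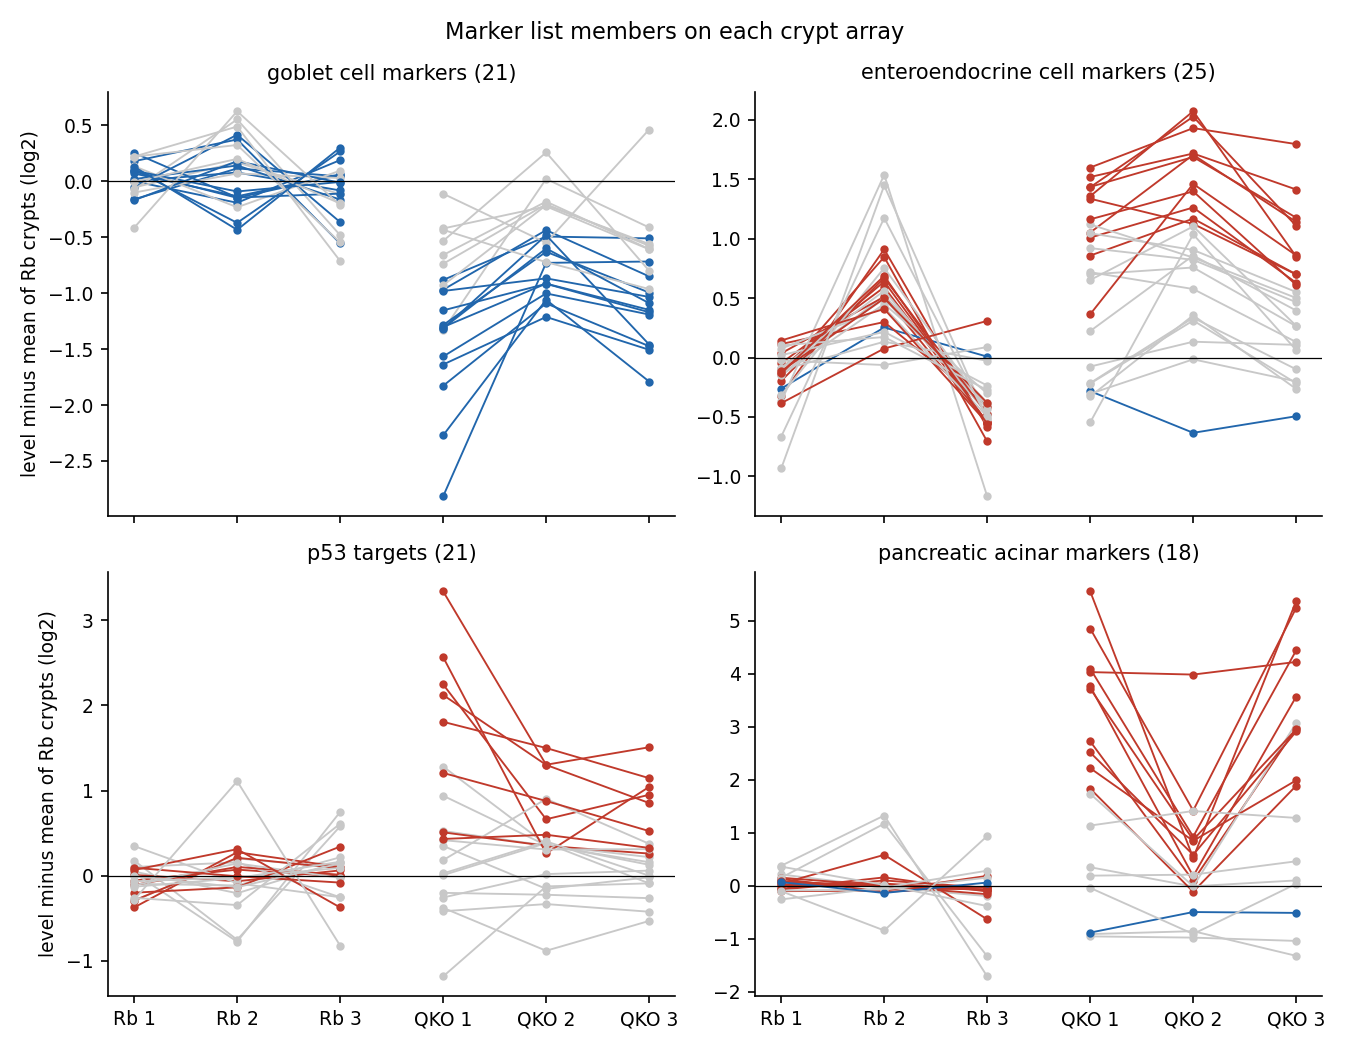
Level of each marker gene on each of the 6 crypt arrays minus the mean of the Rb crypts (log2), for goblet (21 genes), enteroendocrine (25), p53 target (21) and pancreatic acinar (18) lists, red for genes called higher, blue for lower and grey for not called. Goblet lines drop on the QKO arrays, while several acinar genes rise on QKO crypts 1 and 3 and less on QKO crypts 2, as Cela2a does (9.51, 4.49 and 9.33).

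Of 22 stem cell markers 4 rose and none fell, with a median of 0.33, a share near the 13.4% of all genes. Tert, the catalytic subunit of telomerase, read 6.02, 5.85 and 6.47 against 8.45, 7.89 and 7.64 (1.88 ± 0.30, adjusted p = 0.00022, limma), with no overlap, although only 1 of its 2 probe sets was called. Bmi1, a Polycomb protein found in reserve stem cells, rose from 8.34, 8.27 and 8.16 to 9.12, 9.04 and 8.73 (0.71). The Wnt target Ascl2 rose by 0.91 (adjusted p = 0.0329, limma, under 8 of 17 alternatives).

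Lgr5, the receptor that marks crypt base stem cells, read 6.58, 7.69 and 5.80 against 5.65, 6.00 and 5.43 and was not called (-0.998, adjusted p = 0.0619, limma; -0.50 without the array labelled Rb crypts 2). Olfm4 (0.12) and Lyz1 (-0.08) were not called either; these 3 were chosen after their values were seen. Of 13 Paneth cell markers 2 fell, with a median of -0.81 and a summed level of 16.74 to 17.05 against 16.06 to 16.31. One of the 2, Nupr1, a stress-induced chromatin protein, read 9.995, 10.47 and 7.87 against 8.12, 7.63 and 7.35 (-1.74, adjusted p = 0.0391, limma) and lost its call without the array labelled Rb crypts 2.

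Of 27 enterocyte markers 2 rose and 6 fell. Slc2a2, the basolateral glucose transporter, rose from 9.79, 9.63 and 10.90 to 12.78, 12.98 and 13.02 (2.82 ± 0.35, adjusted p = 2.16e-05, limma), and all QKO arrays were above all Rb arrays. Ceacam20, a brush border adhesion protein, fell from 6.95, 7.18 and 8.02 to 4.35, 6.16 and 5.96 (-1.89, adjusted p = 0.00108, limma). The summed enterocyte level was 17.23 to 17.86 and 17.57 to 17.64, so the groups overlapped.

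Immune and stromal markers mostly were not called. Of 19 T cell markers 3 fell, Cd3g of the T cell receptor complex (-1.63, adjusted p = 0.0328, limma), Gzma, a granzyme (-1.62, adjusted p = 0.0453, limma), and Cd7 (-1.39, adjusted p = 0.0459, limma). Cd3g read 7.00, 5.79 and 8.62 on the Rb arrays and 5.59, 4.81 and 6.10 on the QKO arrays, an overlap, and the list had no call without QKO crypts 2 and 8 falls without the array labelled Rb crypts 2. Among 14 B cell and plasma cell markers 1 rose, Sdc1 (1.01), and 3 fell, among them Cd22 (-0.85) and Cd79a (-0.86). Without the array labelled Rb crypts 2, Cd79a was at -0.46 and Gzma at -2.45. None of 25 macrophage, 7 MHC class II, 20 stromal or 4 erythroid genes was called, and the part of such cells in the other results was not tested.

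**Figure D3:**
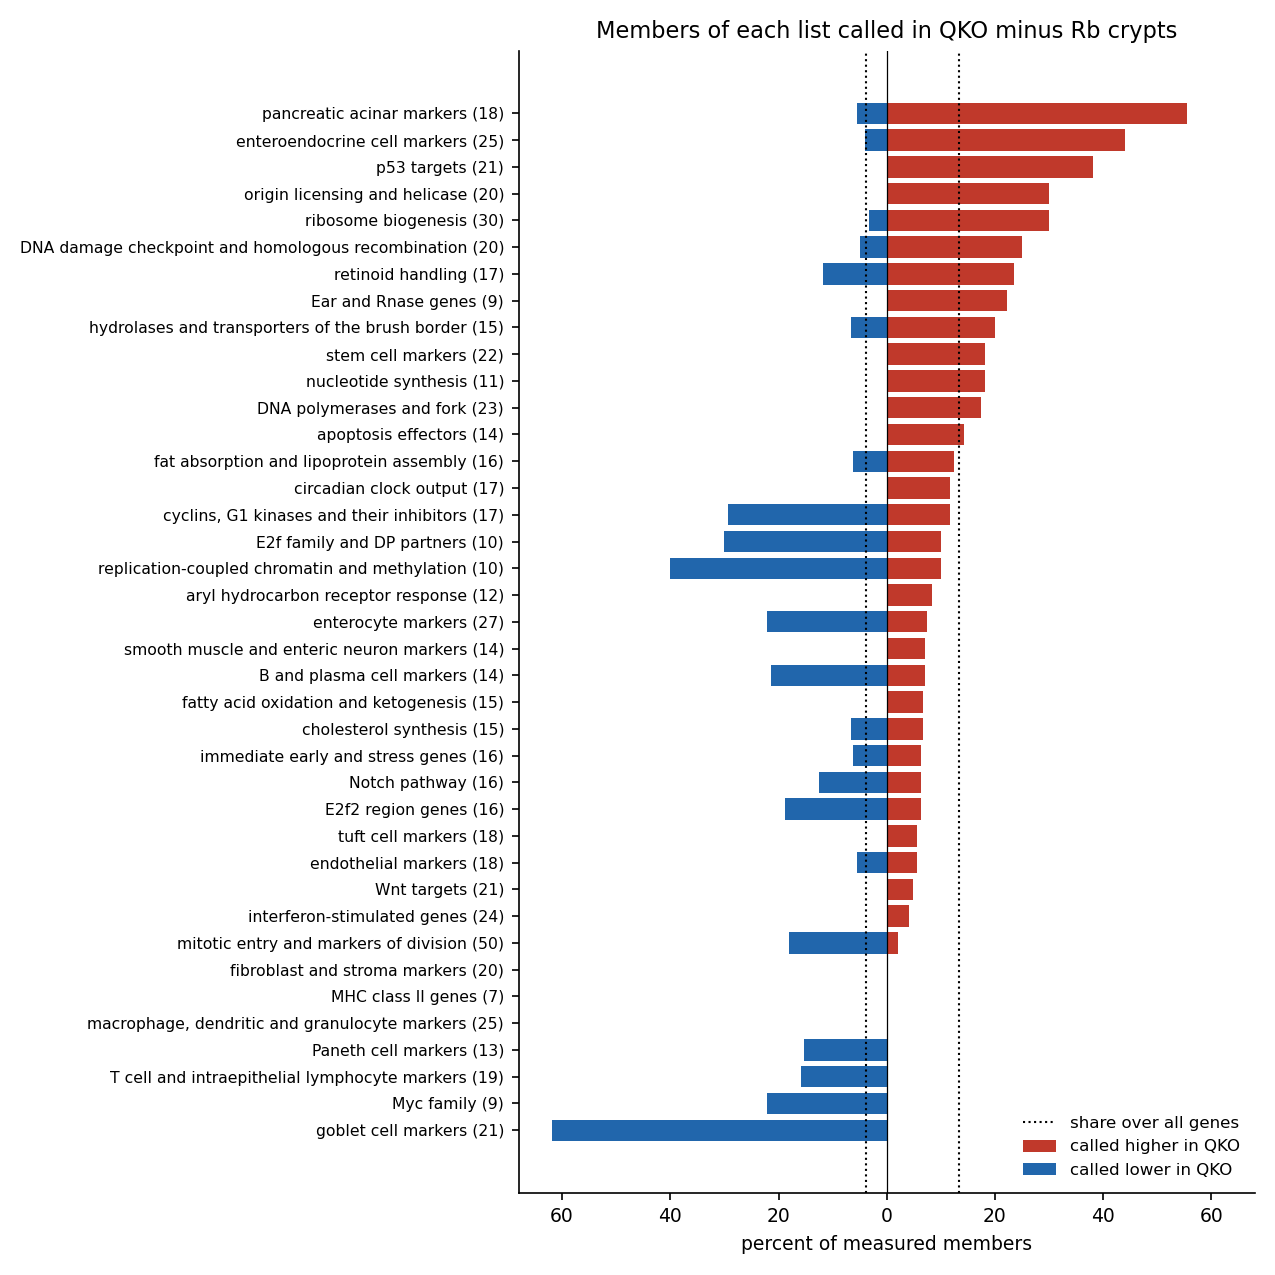
Bars give the percent of the measured members of each list that were called higher (red) or lower (blue) in QKO than in Rb crypts, and dotted lines give the percent of all 18193 genes (13.4% higher, 3.78% lower). The lists with the fewest measured genes (pocket proteins, erythroid markers, and Y-linked genes with Xist) are not drawn. Of the lists drawn, goblet markers (13 of 21 lower), pancreatic acinar genes (10 of 18 higher) and enteroendocrine markers (11 of 25 higher) reach farthest.

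Among the largest rises was that of Rbp7, a cellular retinol-binding protein. It read 4.29, 4.53 and 4.54 on the Rb arrays and 8.82, 10.07 and 9.92 on the QKO arrays, 35.5-fold higher on the deposited scale (5.15 ± 0.31, adjusted p = 3.1e-09, limma). Amph, amphiphysin of endocytic membranes, rose from 3.67, 3.59 and 3.43 to 7.95, 8.01 and 7.34 (4.203 ± 0.34). Rnase1, a secreted ribonuclease, rose from 4.82, 4.84 and 4.72 to 8.83, 8.78 and 9.02 (4.08 ± 0.27). These 3 genes were dim and even on the Rb arrays and did not overlap, and in TKO against WT crypts Rbp7 differed by 4.26, Amph by 3.60 and Rnase1 by 3.75.

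Pdx1, a transcription factor of the duodenum and pancreas, rose from 5.11, 4.27 and 4.86 to 8.01, 7.99 and 8.17 (3.31 ± 0.33, adjusted p = 1.61e-06, limma). S100g, the calcium carrier calbindin-D9k of absorptive cells, rose from 7.73, 7.20 and 8.45 to 11.46, 11.09 and 11.22 (3.46 ± 0.55, adjusted p = 0.000263, limma). Its TKO minus WT difference was -0.13, but the gap between crypts without and with Rb was not called. Slc25a4, the ADP and ATP carrier of mitochondria, rose from 7.13, 7.82 and 6.79 to 10.73, 10.47 and 10.16 (3.21, adjusted p = 5.13e-08, limma). On each of the 3 the QKO arrays lay close together and above all Rb arrays. The quinone reductase Cryz (3.62), the complement-related gene Cfhr2 (3.58), the monocarboxylate transporter Slc16a9 (3.37) and the receptor Gpr151 (3.20) completed the largest rises that the rule named, beside the acinar genes Cpb1 and Cela2a. Only 1 of the 2 probe sets of Cryz and of Cfhr2 was called.

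Several pancreatic acinar genes were uneven between QKO arrays. Of 18 measured, 10 rose and 1 fell (Zg16, also a goblet marker, named after its value was seen), with a median of 1.48. The rises included Rnase1, whose even levels on the QKO arrays are given above. Cpb1, a pancreatic carboxypeptidase, read 4.02, 3.91 and 3.86 on the Rb arrays and 8.79, 5.35 and 9.18 on the QKO arrays (3.84 ± 0.58, adjusted p = 0.000137, limma). Cela2a, a pancreatic elastase, read 3.86, 3.87 and 4.15 against 9.51, 4.49 and 9.33 (3.82 ± 0.74, adjusted p = 0.00125, limma), and Cpa1, another carboxypeptidase, 4.12, 4.29 and 4.15 against 8.29, 5.12 and 8.63 (3.16). For all 3, QKO crypts 2 lay nearer to the Rb arrays than to the other QKO arrays. The summed level of the list overlapped at 15.03 to 15.23 against 15.08 to 15.26, but such a sum is carried by the brightest members. The mean log2 level of the list did not overlap, at 6.91, 6.97 and 6.68 against 8.85, 7.28 and 8.95. The call of Cela2a was lost when only the groups compared were fitted (adjusted p = 0.0682, limma). Cela1, an elastase, rose more evenly, from 8.08, 7.93 and 7.77 to 10.15, 8.78 and 9.92 (1.69). Whether pancreas tissue took part was not tested.

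The largest falls were led by St3gal4, a sialyltransferase. It read 13.12, 12.52 and 13.46 on the Rb arrays and 4.52, 5.69 and 4.31 on the QKO arrays, 293-fold lower on the deposited scale (-8.20 ± 1.43, adjusted p = 0.000542, limma). Its level was split within WT crypts too, at 12.77, 5.41 and 6.53, while the TKO crypts read 12.08, 12.03 and 12.20. Clca4a, of the chloride channel regulator family, fell from 12.29, 11.27 and 12.88 to 5.71, 5.29 and 7.30 (-6.05 ± 0.49, adjusted p = 8.56e-08, limma).

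Pla2g2a, a secreted phospholipase of Paneth cells, fell from 14.29, 14.40 and 13.64 to 8.49, 8.16 and 8.01 (-5.89 ± 0.44, adjusted p = 4.48e-08, limma), with a TKO minus WT difference of -5.51. It belongs to a list of genes of the E2f2 region, which includes E2f2 itself. Of the 16 measured there, 3 fell and 1 rose, against 3.78% and 13.4% of all genes. Whether its place near the targeted E2f2 bears on its fall was not tested. Ada, adenosine deaminase, fell from 12.48, 9.93 and 12.21 to 6.98, 7.61 and 7.44 (-4.196 ± 0.61, adjusted p = 0.000114, limma). Nt5e, the ectonucleotidase that makes adenosine, fell from 8.20, 7.01 and 7.84 to 4.32, 4.46 and 4.26 (-3.33). For Ada and Nt5e the array labelled Rb crypts 2 was the lowest of its group but still above every QKO array.

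The membrane protein gene Pmp22 fell from 11.33, 10.52 and 11.43 to 5.42, 6.52 and 7.60 (-4.58). Plb1, a phospholipase of the brush border, fell from 8.62, 10.50 and 9.04 to 4.56, 5.07 and 4.99 (-4.51), a call lost with sex as a covariate. Ly6m (-3.49), the protease gene Ctse (-3.26), Mtmr11 (-2.36) and the gasdermin Gsdmc2 (-2.35, called under 10 of 17 alternatives) also fell. Only 1 of the 2 probe sets of Ctse and of Mtmr11 was called, and the other of Ctse was at 0.32. Without the array labelled Rb crypts 2, Gsdmc2 was not called (adjusted p = 0.0643, limma).

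Lists of growth and stress genes were examined last. Of 30 ribosome biogenesis genes 9 rose and 1 fell, with a median of 0.39. Rrs1, an assembly factor of the large ribosomal subunit, rose from 8.93, 9.70 and 8.39 to 10.29, 10.33 and 10.42 (1.34, adjusted p = 0.00141, limma), Pno1 of the small subunit rose by 0.67, and Ubtf, a factor of RNA polymerase I, fell by 0.63 (adjusted p = 0.000888, limma). Without QKO crypts 2 the list had 4 rises and without the array labelled Rb crypts 2 it had 12. In the Myc network 2 of 9 fell, Mxd1 (-1.12, adjusted p = 0.016, limma) and Mxd3 (-0.56, adjusted p = 0.0343, limma), which oppose Myc.

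Of 24 interferon-induced genes 1 rose, Ifit2 (1.61, adjusted p = 0.00838, limma). Of 16 immediate early genes Ier3 rose (1.06) and Fos, part of the AP-1 factor, fell by 1.20. Among 12 genes of the aryl hydrocarbon receptor pathway, which beta-napthoflavone activates, Nqo1 rose (0.83, under 8 of 17 alternatives), but not without the array labelled Rb crypts 2 (adjusted p = 0.0899, limma). Of 17 circadian genes 2 rose, among them the clock repressor Cry1 (1.04), and of 17 retinoid genes 4 rose and 2 fell, with Rbp4, the plasma retinol carrier, at 1.49 and Lrat, which esterifies retinol, at 0.77. Without the array labelled Rb crypts 2, 1 circadian gene rose, and 3 retinoid genes rose and 1 fell.

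The same genotypes were compared in villi. The sexes were not matched between the compartments: the Rb crypts were female, 2 of the 3 Rb villi were male, and all QKO arrays were male. Sex and compartment are thus partly mixed in what follows. The QKO minus Rb difference in crypts, less that in villi, was called for 1373 genes (7.55%), 790 of them (4.34%) higher and 583 (3.2%) lower in crypts, and for 786 with sex as a covariate. Of the 20 origin licensing genes 14 differed, all toward higher in crypts, with list medians of 0.40 in crypts and -0.55 in villi. DNA polymerase genes gave 14 of 23 (0.14 against -0.74), replication-coupled chromatin 6 of 10 (0.06 against -0.73) and mitotic genes 10 of 50 (-0.39 against -1.19), each toward higher in crypts. For Gins2 the differences were 1.14 and -0.07, and for Hells 0.88 and -0.64. After centring on array medians 70.6% of the called genes were higher in crypts, and after quantile normalization 47.2%, against 57.5% as deposited. Without QKO crypts 2 this share was 42.6%.

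E2f7 fell in both compartments and farther in villi, at -2.19 and -3.64, and the difference of 1.45 was called (adjusted p = 0.0402, limma). For Mki67 the values were -1.95 and -3.08, and for Cdkn2c -3.99 and -4.45. Dck, the salvage kinase of deoxycytidine, read 9.39, 8.73 and 8.75 on the Rb crypts and 8.56, 8.29 and 8.92 on the QKO crypts, an overlap, although 1 of its 3 probe sets was called lower in crypts (-1.01). In villi it read 9.71, 9.85 and 9.76 against 5.93, 7.51 and 6.56, and its difference between compartments was 2.74 ± 0.42 (adjusted p = 0.000851, limma).

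**Figure D4:**
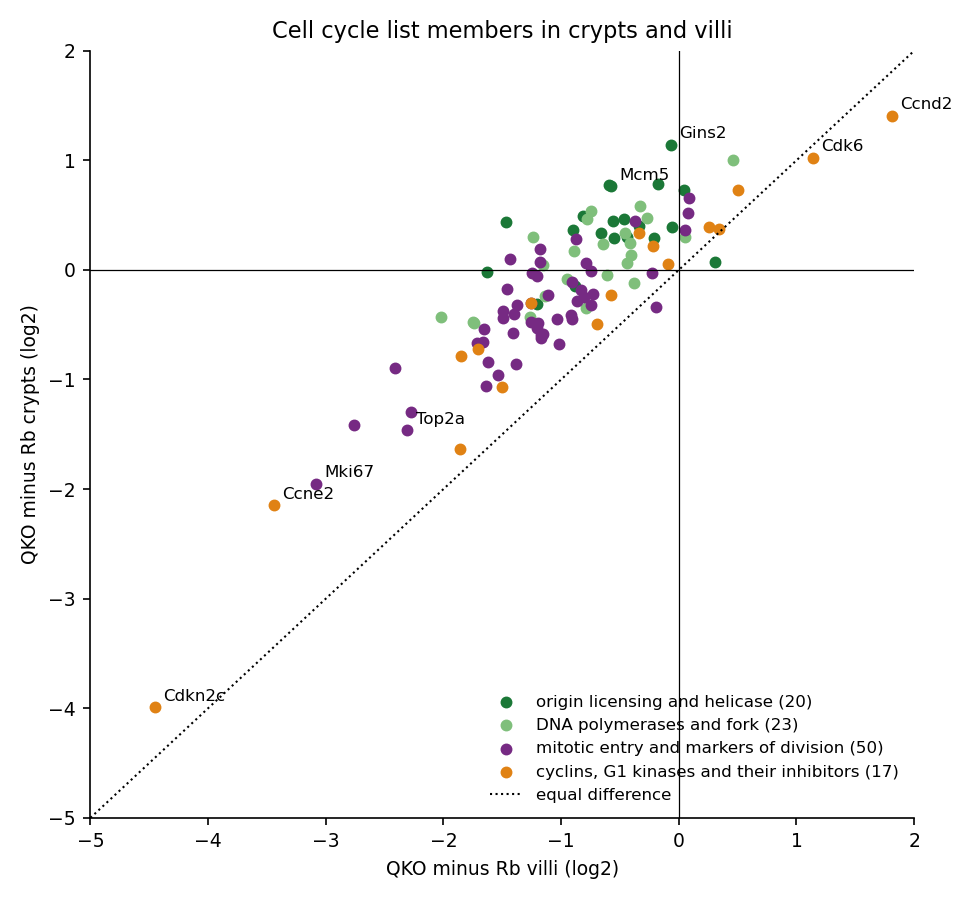
Each point is 1 of 110 cell cycle genes, with its QKO minus Rb difference (log2) in villi on the x axis and in crypts on the y axis, in 4 lists, and a dotted line where the 2 are equal. Points above the line number 106 of 110, among them Gins2 (-0.07 in villi, 1.14 in crypts). The share of all genes above it was not counted. Of genes called between the compartments, 57.5% were higher in crypts as deposited and 47.2% after quantile normalization.

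Enteroendocrine markers differed the opposite way, with 16 of 25 called and all lower in crypts than in villi (list medians 0.82 and 2.40). Tph1 read 6.43, 6.07 and 6.15 on the Rb villi and 10.34, 9.74 and 10.49 on the QKO villi, a difference of 3.98 against 1.77 in crypts. T cell markers gave 7 of 19, all lower in crypts. Goblet markers and p53 targets gave none of 21 each, and their medians in villi were -0.60 and 0.32.

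Some of the largest crypt falls were called as different from villi. Clca4a was at -0.08 in villi (difference -5.97), Ada at 0.60 (-4.80) and Nt5e at 1.91 (-5.25), while St3gal4 was at -8.13, near its crypt value. The acinar genes Cpb1 (0.55 in villi) and Cela2a (0.14) were higher in crypts by 3.29 and 3.68.

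The loss of the 3 E2f genes was also set against the same loss in crypts with Rb. The spike-in split ran with the E2f genotype there as well, and sex did in part. TKO and WT crypts differed in 861 genes (4.73%), 351 higher (1.93%) and 510 lower (2.8%). The difference of differences was called for 5 genes (0.0275%): Ccnb1ip1, Ear3, Anxa10 and Tbcel toward higher in the Rb-null crypts (0.022%) and St3gal4 toward lower (0.0055%). Over the alternatives this count ran from 2 to 57, the most with array weights, and it was 25 without the arrays labelled Rb crypts 2 and WT crypts 3, whose Rb1 levels went against their labels.

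Ccnb1ip1, a ubiquitin ligase known from meiosis, read 5.24, 6.15 and 5.03 on the Rb arrays and 8.38, 7.94 and 9.31 on the QKO arrays, whereas WT crypts read 5.51, 6.05 and 5.07 and TKO crypts 4.09, 4.13 and 4.07. Its differences of 3.07 and -1.45 thus had opposite signs (4.52 ± 0.46, adjusted p = 2.84e-05, limma). Ear3, an eosinophil-type ribonuclease, read 9.80, 9.28 and 8.89 against 8.55, 9.37 and 8.08 (-0.66), and 8.996, 9.56 and 9.63 on WT against 3.04, 2.87 and 3.05 on TKO arrays. Its low level was confined to the TKO arrays among these 4 crypt groups (5.75 ± 0.41, adjusted p = 6.59e-08, limma).

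Anxa10, an annexin of the stomach, read 3.72, 3.43 and 3.93 against 6.91, 5.83 and 5.81 (2.49) and stayed between 3.61 and 4.34 on the WT and TKO crypts. Tbcel, a tubulin cofactor, read 7.46, 7.52 and 7.66 against 8.49, 8.48 and 8.54 (0.96) and 7.57 to 7.75 on those arrays. The differences of differences were 2.70 (adjusted p = 0.0215, limma) and 1.02 ± 0.16 (adjusted p = 0.0137, limma). Between QKO and Rb crypts only 1 of the 2 probe sets of Anxa10 and of Tbcel was called. Origin licensing genes had a median of 0.31 in TKO against WT crypts beside 0.40, mitotic genes -0.32 beside -0.39, p53 targets 0.15 beside 0.37 and ribosome biogenesis 0.07 beside 0.39.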

How the data were processed

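The authors deposited 1 table of log2 expression values for 45101 probe sets on 24 arrays of a mouse Affymetrix design. Per the labels, Trizol was used to extract RNA and 3 ug of it gave the biotinylated cRNA. The sources used here do not state how the deposited log2 values were summarised or normalized, and no further normalization was applied. All value columns belonged to a sample (0 did not), and the number of arrays limits the precision.

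Of the probe sets, 34945 were assigned 1 gene by GEO's platform table, 932 several, 9160 none listed here and 64 were controls. Symbols of 34741 were updated through Entrez and 204 kept. Each of the 18193 genes was represented by its brightest probe set, by the 24-array mean. Other probe sets of a gene did not always pass the test, which is stated for some genes only. Groups came from the sample titles.

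One mean per group was fitted over all 24 arrays with limma 3.58.1 in R 4.3.3 (2-sided, variances moderated along an intensity trend with 16 residual and 4.86 prior degrees of freedom, Benjamini-Hochberg within each comparison, called at an adjusted p under 0.05). SE values are from this fit. Tables and figures were made with Python 3.11.15, pandas 2.3.3, numpy 2.4.6 and matplotlib 3.10.9. On simulated data with 200 changed genes of 18193, the test of QKO against Rb crypts recovered 20.9% of genes changed by 0.5, 85.1% by 1 and 98.5% by 2, and called 0.0222% of unchanged genes.

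The members and gene lists were chosen with earlier results of these data known. Named genes were the 12 largest rises and falls among called genes with no overlap and a mean above the median of all values (predicted, Riken, Y-linked genes and Xist left out), up to 3 called members per list with the smallest p, the E2f, DP and pocket protein genes, and the 4 largest rises and falls of each difference of differences. Promoters are those of called cell cycle genes with a match, by p.

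Arrays of the same number in QKO and Rb crypts deviated together with correlations of -0.01, 0.05 and 0.12, so they were treated as unpaired. The alternatives were median-centred arrays, quantile normalization, no trend, removal of dim genes, the mean of probe sets, every probe set, a fit on the groups compared alone, array weights, sex as a covariate, the replicate block, and each array of the groups compared left out. Leaving out 2 arrays at once was added after seeing the data.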

Additional observations from a re-analysis of the deposited data

Results flagged for a closer look

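The results below are differences of differences that passed limma's test (adjusted p under 0.05), so the QKO minus Rb difference in crypts differed from that in villi, or from the TKO minus WT difference in crypts. The sexes of the arrays were not matched between crypts and villi, and with sex as a covariate 786 genes in place of 1373 were called there. Values are on the log2 scale.

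For crypts minus villi, cell cycle and growth genes that differed toward higher in crypts were Hells (1.52), Tcf19 (1.48), E2f7 (1.45), Cdt1 (1.37), Chek1 (1.35), Mcm5 (1.34), Pole2 (1.28), Ctps (1.28), Rrs1 (1.26), Gins2 (1.21), Chek2 (0.99), Gins1 (0.96), Rfc4 (0.92), Mcm2 (0.68) and Tfdp1 (0.65), together with Dck (2.74), and Ubtf differed toward lower (-0.60). The crypt differences of E2f7, Tcf19 and Tfdp1 were themselves below 0, and less so than in villi.

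Among marker and other genes, those toward lower in crypts were Tph1 (-2.20), Scg2 (-1.71), Cck (-2.0) and Chga (-1.72) of enteroendocrine cells, Cd3g (-3.05), Cd7 (-2.97) and Cd79a (-1.03) of lymphocytes, Rbp4 (-2.18), Fos (-1.36), Anxa10 (-2.42), Ada (-4.80), Clca4a (-5.97), Pmp22 (-3.82), Ly6m (-4.58), Nt5e (-5.25) and Mtmr11 (-1.84). Those toward higher in crypts were Bmi1 (1.11), Slc2a2 (1.67), Cry1 (1.19), Amph (1.78), Rnase1 (2.60), Ccnb1ip1 (1.60) and the acinar genes Cpb1 (3.29), Cela2a (3.68) and Cpa1 (2.61).

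For crypts without Rb minus crypts with Rb, the genes were St3gal4 (-12.06), Ccnb1ip1 (4.52), Ear3 (5.75), Anxa10 (2.70) and Tbcel (1.02).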

How the results depend on the processing

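The array number limits what can be seen: in simulated data 20.9% of genes changed by 0.5 were recovered. The simulation changed 200 genes where the data had 3128 calls. The adjusted p depends on that number, so the share recovered in the data can differ. Of 107 named genes called in crypts, 56 were called under all alternatives run. They numbered 97 after quantile normalization, 80 with the replicate block and 67 with sex as a covariate, where sex is estimated from other groups because the Rb crypts were female and the QKO crypts male.

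The 3128 genes called between QKO and Rb crypts became 6132 with every probe set as its own row of the test. They became 1605 with sex as a covariate (1423 shared) and 1212 when only these arrays were fitted (1170 shared). The replicate block, fitted on the same arrays alone, gave 1295 (1215 shared). Leaving out 1 array gave 1964 to 2885, and leaving out the arrays labelled Rb crypts 2 and QKO crypts 2, an alternative chosen after seeing the data, 1890. The 5 genes called against TKO and WT crypts became 8 after centring, 2 with the mean of probe sets, 12 with every probe set, 3 with only those groups, 57 with array weights and 8 with the replicate block. Without 1 array they were 2 to 21, being 10 without the array labelled Rb crypts 2 or TKO crypts 3, 21 without QKO crypts 2, 20 without QKO crypts 3, 3 without WT crypts 2 or QKO crypts 1 and 2 without Rb crypts 1 or TKO crypts 2. Leaving out Rb crypts 2 with QKO crypts 2 gave 24, and with WT crypts 3, 25. The 1373 genes called between crypts and villi became 2303 with every probe set, 533 with only those groups, 786 with sex as a covariate, 1773 with the replicate block, 793 to 1726 without 1 array (833 without Rb villi 2, 793 without Rb villi 3) and 914 without the arrays labelled Rb crypts 2 and QKO crypts 2. The cause was not tested.

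The genes E2f6, Kdm5d and Xist turned direction: the first with the mean of probe sets (-0.107, adjusted p = 0.629, limma), and with sex as a covariate Kdm5d (-0.0479, adjusted p = 0.949, limma) and Xist (0.11, adjusted p = 0.955, limma). Same-numbered QKO crypts and villi deviated together (0.55, 0.25 and 0.37) but Rb crypts and villi did not (0.06, -0.01 and -0.24), and 2 of the 3 Rb villi were male where all Rb crypts were female, so the numbers pair QKO arrays by their values but not Rb arrays. The crypt and villus fit was therefore kept without the block.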

Other observations

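The genes beside the targeted loci were read as a description, 25 measured genes on each side, against 17.2% of all genes called. Around E2f1 on chromosome 2, 8 rose and 1 fell (18%), and around E2f2 on chromosome 4, 4 rose and 2 fell (12%). The window around E2f2 did not reach Pla2g2a (-5.89), which is in the list of E2f2 region genes. Around E2f3 on chromosome 13, 3 rose (6.0%), and around Rb1 on chromosome 14, 11 rose (22%). The numbers called between TKO and WT crypts among the same neighbours were 0, 6, 2 and 3 of 50 each, against 4.73% of all genes. Examples chosen after their values were seen are Dnmt3b, a DNA methyltransferase near E2f1 (1.12 in QKO against Rb crypts and 0.35 in TKO against WT crypts), Tcea3 near E2f2 (-1.20 and -1.37), Mboat1 near E2f3 (1.48 and 1.75), and Piwil2 (2.24 and 0.38) and Ccdc122 (1.62 and 1.46) near Rb1.

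Lists of lipid handling held few calls. Of 16 genes of fat absorption 2 rose and 1 fell, the rises including Mogat2, which resynthesises triglyceride. Of 15 genes of fatty acid oxidation 1 rose, Ehhadh of the peroxisome, and of 15 of cholesterol synthesis 1 rose and 1 fell, with a median of 0.51. Without the array labelled Rb crypts 2 no cholesterol gene was called, and 1 fat absorption gene rose and 1 fell. Among 18 tuft cell markers 1 rose, Plcg2, a phospholipase of taste-type signalling.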
